A study of Drosophila melanogaster with 4 samples.

Results

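The base of chromosome arm 3L of Drosophila melanogaster is the last 2 Mb of the assembled arm on its centromere side, from 22543558 to 24543557 in FlyBase release 5. Its members are the enriched regions of Su(var)3-9 whose midpoint lies between those bounds. The combined list of the replicate set held 307 of them among its 21932 enriched regions, the list of ChIP replicate 1 held 202 of 6699, and the list of ChIP replicate 2 held 215 of 10048. The rule uses position alone and no measured value.

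The ChIP libraries and the input libraries, 2 of each, came from wild type Oregon-R animals at the stage of the third larval instar, with no treatment and no mutant allele in the labels. The labels name homogenized tissue and no organ or cell type, so each value is an average over the cells of the animal. The antibody, an affinity-purified rabbit serum named Q2598, was raised against residues 320 to 419 of Su(var)3-9. The labels describe no knockout or other check of that antibody, and only the region lists of the ChIP libraries and of the replicate set were analysed here. Read depth is unknown, so an absent region was at most not called.

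Su(var)3-9 methylates histone H3 in heterochromatin, where the modified tail is bound by heterochromatin protein HP1. The name comes from position-effect variegation: loss of the enzyme suppresses the silencing of genes that lie next to heterochromatin. Each chromosome arm of the fly passes from gene-rich euchromatin into repeat-rich pericentric heterochromatin as it nears the centromere, and the assembled sequence of 3L runs some way into that second part. The lists allow the question of where along the base this change appears in the binding of the enzyme, and in which measure: the share of bases inside regions, the length of single regions, or the score that the authors gave each region.

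The base carried far more Su(var)3-9 signal than the rest of the arm, in longer and higher-scoring regions. Regions covered 40.7% of the base in replicate 1 and 34.2% in replicate 2, a mean of 37.5% ± 4.61 (SD, n = 2), against 6.63% and 12.1% of the rest of 3L, a mean of 9.34% ± 3.84 (SD, n = 2). The difference was 34.1 percentage points in replicate 1 and 22.1 in replicate 2, a mean of 28.1 ± 8.46 (SD, n = 2), larger than the spread between the lists. The 2 replicates gave unequal contrasts: replicate 1 had the higher coverage at the base and the lower coverage elsewhere, so its ratio was 6.15, against 2.84 in replicate 2. An exact sign-flip permutation over 2 libraries cannot give a two-sided p below 0.5, so no p-value accompanies these or the following differences.

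The base held a larger share of the arm's long and high-scoring regions than of all its regions. The base makes up 8.15% of the arm and held 19.3% of the arm's regions in replicate 1 and 13.0% in replicate 2. Its regions per Mb were 2.69 and 1.68 times those of the rest of 3L in replicates 1 and 2. Its median region length was 1.67 and 1.39 times that of the rest, so number rose as well as length. It held 48 of the 51 regions of at least 5000 bp on 3L in replicate 1 and 35 of 48 in replicate 2. All 13 regions of at least 10000 bp that replicate 1 has on 3L, and all 6 of replicate 2, were members. Of the regions with a score of at least 1, it held 113 of 136 in replicate 1 and 41 of 44 in replicate 2. The median member of replicates 1 and 2 measured 2723 and 2297 bp, against 1629 and 1655 bp over the rest of 3L. Its score was 1.07 and 0.669, against 0.590 and 0.516. The score is the authors' own value per region, on a scale that the files do not name.

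In the combined list the base did not hold more regions per Mb than the rest of the arm. It had 153.5 regions per Mb, against 154.2 over the rest of 3L, while the replicate lists had 101 and 107.5 per Mb at the base against 37.6 and 63.9. Coverage in the combined list still differed, at 53.8% of the base and 27.2% of the rest. The 500 kb just outside the base came close to it in this list, with 47.7% covered and 242 regions per Mb. That share lay above the 37.8% of the outermost 500 kb of the base itself. Members of the base were longer, with a median of 2324 bp against 1483 bp over the rest. Of the 307, 61 (19.9%) measured at least 5000 bp, where 3.59% of all regions in the combined list did. A score of at least 1 was found in 48 members (15.6%), against 5.99% of all regions in that list.

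**Figure D1:**
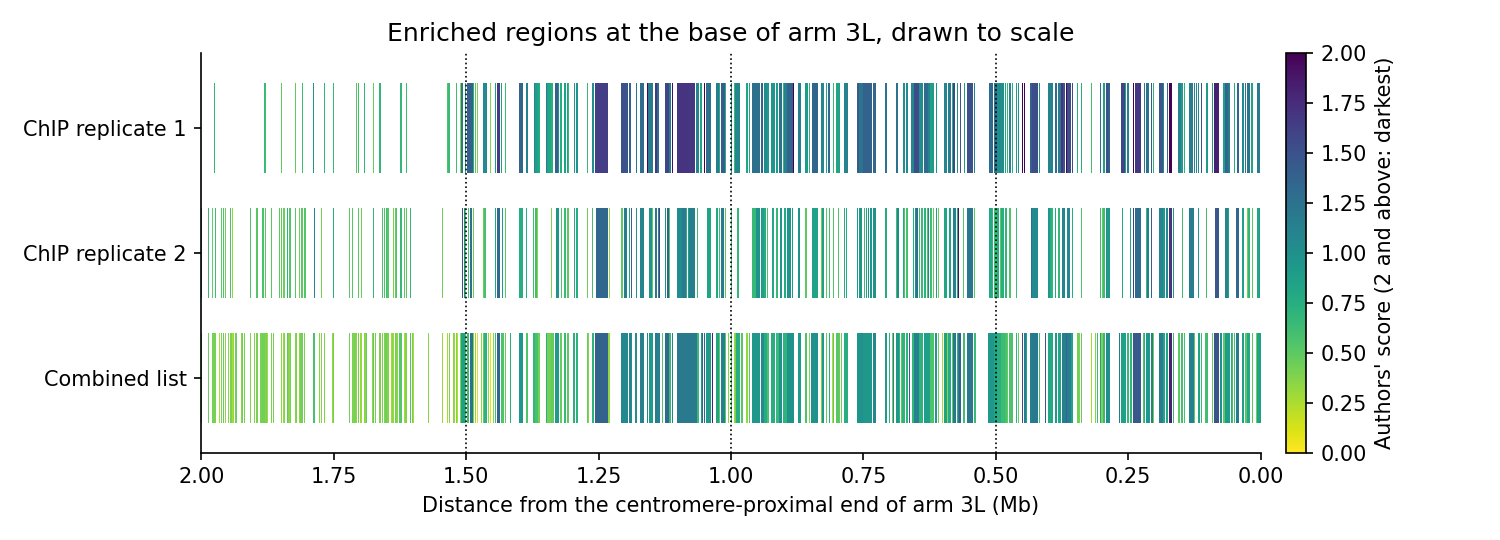
Every member of the 2 replicate lists and of the combined list, drawn to scale against the distance in Mb from the proximal end of arm 3L, which lies at the right. Colour gives the authors' score, and dotted lines mark 1.5, 1 and 0.5 Mb. Regions are short and low-scoring from 2 to 1.5 Mb and longer and higher-scoring from 1.5 Mb to the end in all 3 lists.

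The rise was uneven over the 2 Mb and set in about 1.5 Mb from the end of the arm. When the base was divided into 4 stretches of 500 kb, the outermost (22543558 to 23043557) had 10.4% and 18.8% of its bases in regions of replicates 1 and 2. The second stretch (23043558 to 23543557) was covered at 50.3% and 39.5%, the third (23543558 to 24043557) at 56.0% and 42.7%, and the innermost (24043558 to 24543557) at 46.2% and 35.9%. Each inner stretch exceeded the outermost in both lists. Against the 500 kb just outside the base, with 9.20% and 22.6%, the outermost stretch was higher in replicate 1 and lower in replicate 2.

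Median length followed the same outline. In map order it was 1700, 3083.5, 4154.5 and 2691 bp in the 4 stretches of replicate 1, and 1666, 2616, 2794 and 2628.5 bp in those of replicate 2. The medians of the outermost stretch lay close to the 1629 and 1655 bp of the rest of the arm. Among the inner stretches the one from 23543558 to 24043557 had the longest median in both lists. In the inner 1.5 Mb 48 of 175 members (27.4%) of replicate 1 and 35 of 164 (21.3%) of replicate 2 reached 5000 bp, where no member of either list did in the outermost stretch.

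Scores changed at the same place and then stayed level. The median score was 0.634, 1.09, 1.08 and 1.16 along the 4 stretches in replicate 1, and 0.526, 0.764, 0.767 and 0.804 in replicate 2. The innermost stretch had the highest median in both lists, though the 2 lists stood farther apart than the 3 inner stretches of either. In the inner 1.5 Mb a score of at least 1 was given to 112 of 175 regions (64.0%) of replicate 1 and to 38 of 164 (23.2%) of replicate 2. In the outermost stretch it was given to 1 of 27 and to 3 of 51.

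A single step was placed in each list by least squares, to give the rise a position for each measure. Such a fit returns a step for a gradual rise as well, and no gradual rise was fitted beside it. For coverage in windows of 100 kb it lay at 23043558 in replicate 1 and at 23143558 in replicate 2, or 1450 kb ± 70.7 (SD, n = 2) from the end of the arm. Mean coverage was 50.8% inside and 10.4% outside the step of replicate 1, and 40.3% inside and 20.1% outside that of replicate 2. For length the step lay at 23034134 and 23046710, or 1503 kb ± 8.89 from the end, with geometric mean lengths of 3453 bp inside and 1757 bp outside in replicate 1 and of 3020 and 1780 bp in replicate 2. For score it lay at 23102162 and 23035822, or 1475 kb ± 46.9 from the end, with mean scores of 1.18 inside and 0.664 outside in replicate 1 and of 0.819 and 0.540 in replicate 2. The 3 positions differed from each other by no more than the spread between the replicates of the coverage step, so these lists give no order among the measures. The step took up 85.9% of the variation of window coverage in replicate 1 and 63.6% in replicate 2. For single regions it took up 11.9% and 16.9% of the variation of log2 length and 21.1% and 16.1% of that of score; windows pool many regions, so these shares are not comparable with those of coverage. Short and low-scoring regions continued to occur on the inner side of the step.

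**Figure D2:**
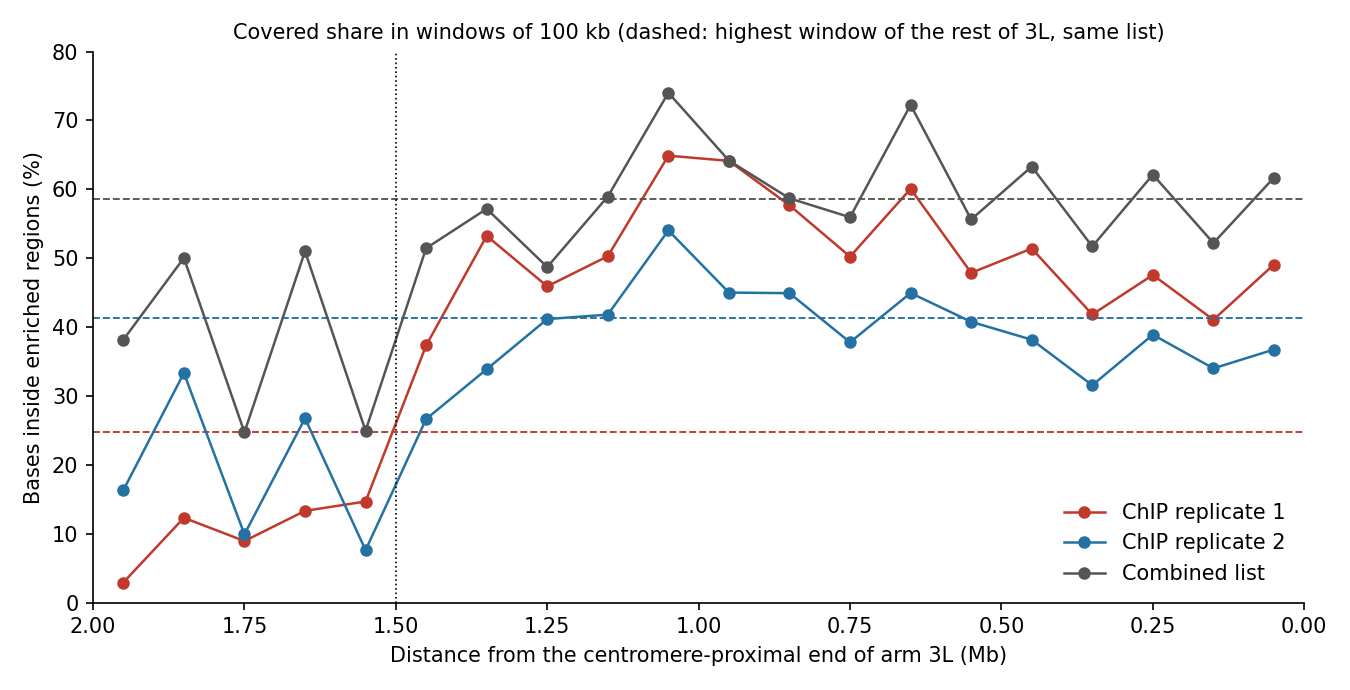
Share of bases inside enriched regions in the 20 windows of 100 kb of the base, by distance from the proximal end of arm 3L, for both replicate lists and the combined list. Dashed lines give the highest window of the rest of 3L in the list of the same colour, at 24.8% for replicate 1, 41.4% for replicate 2 and 58.6% for the combined list. All 15 inner windows of replicate 1 stand above its line, while 5 windows of replicate 2 stand above its own.

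The windows showed how firm the contrast with the rest of the arm was in each library. In replicate 1 the 15 windows from 23043558 to the end of the arm all exceeded the highest of the 225 windows in the rest of 3L, 24.8% (9343558 to 9443557), and the 5 outermost windows ran from 2.91% to 14.7%. In replicate 2 only 5 of the 20 windows exceeded the highest window of the rest, 41.4% (1743558 to 1843557), and the outermost windows ran from 7.61% to 33.3%. In the combined list 8 of the 20 exceeded the highest window of the rest, 58.6%. Inner and outer windows overlapped in replicate 2, which had 26.6% in the outermost of the inner windows (23043558 to 23143557) and 33.3% in an outer one (22643558 to 22743557). The windows that followed the former inwards climbed through 33.9%, 41.2% and 41.8% to 54.0% in replicate 2. Replicate 1 exceeded replicate 2 in all 15 inner windows, but in 1 of the 5 outer ones.

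Coverage peaked in the middle of the base and was lower again towards the end of the arm. The densest window was the same in all 3 lists, 23443558 to 23543557, covered at 64.9% in replicate 1, 54.0% in replicate 2 and 74.0% in the combined list. The last window of the arm was covered at 49.1%, 36.7% and 61.7%. The emptiest window differed: it was 22543558 to 22643557, at 2.91%, in replicate 1, 22943558 to 23043557, at 7.61%, in replicate 2, and 22743558 to 22843557, at 24.7%, in the combined list. The emptiest of replicate 2 directly precedes the step of replicate 1. Across the 20 windows the coverages of the replicates had a Spearman correlation of 0.86, and across the 15 inner windows of 0.74. These describe neighbouring windows of the same 2 libraries.

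The first strong members stood close together at the step. In replicate 1 the outermost member with a score of at least 1 lay at 23034134 to 23038445 (4312 bp, score 1.23), and the outermost of at least 5000 bp at 23045249 to 23055640 (10392 bp, score 1.40). In replicate 2 the outermost of at least 5000 bp lay at 23049995 to 23055446 (5452 bp, score 1.26), inside that same stretch. The combined list has its outermost score of at least 1 there too, at 23049911 to 23056257 (6347 bp, score 1.25). Replicate 2 had a high-scoring region farther out, at 22756143 to 22757599, but it measured 1457 bp and scored 1.09. In the combined list members of at least 5000 bp began earlier, at 22657835 to 22663199 (5365 bp), with a score of only 0.435.

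The 3 longest stretches of the base outside every list lay in the outermost 500 kb. The longest ran from 22944710 to 22972257 (27548 bp), and another from 22973271 to 22997809 (24539 bp). A stretch of nearly the same length as the longest lay from 22794632 to 22822019 (27388 bp). The next longest, of 24248 bp (24005582 to 24029829) and 21365 bp (23314287 to 23335651), lay in the inner 1.5 Mb. Long uncovered stretches were thus not confined to the outermost 500 kb. Bases outside every list made up 60.7% of the outermost stretch, 40.5% of the second, 37.2% of the third and 40.6% of the innermost. The median distance between neighbouring regions of replicate 1 was 2392 bp in the inner 1.5 Mb and 9392.5 bp in the outermost stretch, against 15340 bp over the rest of the arm. In replicate 2 it was 3152 bp in the inner 1.5 Mb and 3404 bp in the outermost stretch, against 6866.5 bp over the rest, so its spacing changed less at the step than its lengths did. The combined list had the opposite order, with 1730.5 bp in the inner 1.5 Mb and 1476.5 bp in the outermost stretch, against 2447 bp over the rest.

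**Figure D3:**
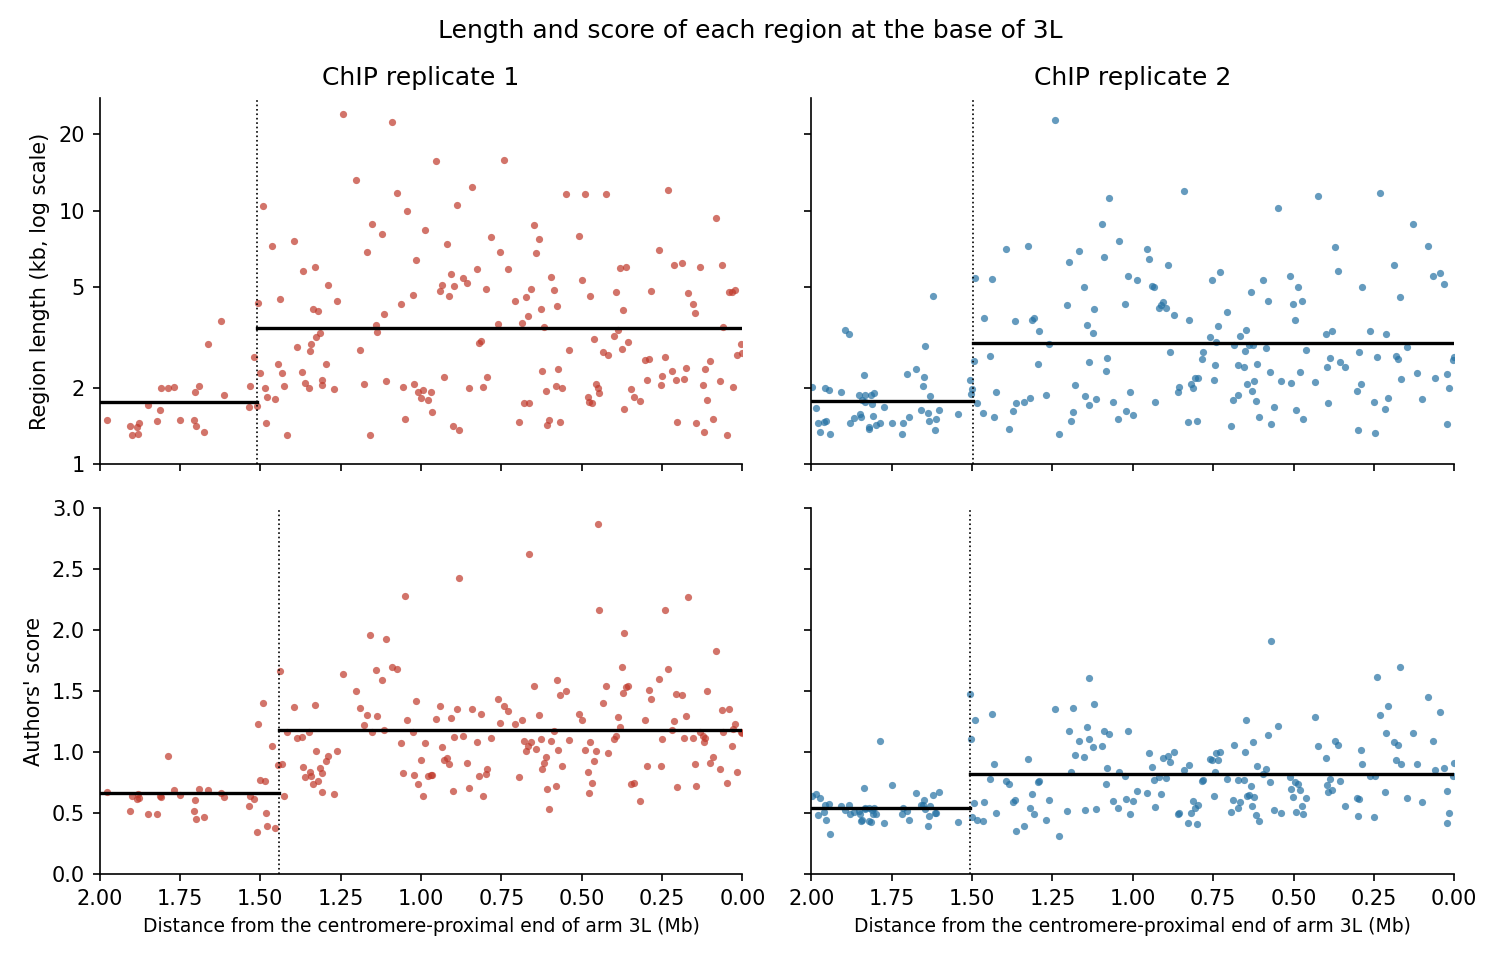
Length in kb on a log scale (top) and the authors' score (bottom) of each member of the list of ChIP replicate 1 (left) and replicate 2 (right), by distance from the proximal end of 3L. Black lines are the means on either side of the fitted step (geometric means for length), and dotted lines give its position. Regions over 5 kb appear only inside 1.5 Mb, among many shorter ones.

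The longest member of the combined list, 38520 bp from 23441591 to 23480110 with a score of 1.18, lay across the start of the densest window. It touched 3 regions of replicate 1 and 5 of replicate 2, which covered 93.8% and 82.1% of it. The second, 24061 bp from 23287738 to 23311798 (score 1.37), matched 1 region in each list, which measured 24058 and 22694 bp in replicates 1 and 2. It was the longest member of both replicate lists, with scores of 1.64 and 1.35. The next 3 measured 15944 bp (23793771 to 23809714, score 0.934), 15902 bp (23583265 to 23599166, score 0.934) and 15114 bp (24302613 to 24317726, score 1.45). Of the 61 members of at least 5000 bp in the combined list, 31 touched several regions of a replicate list, as did 39 of all 307 members.

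Stretches inside regions of both replicate lists do not depend on the combined list. There were 177 of them, 16 in the outermost 500 kb and 50, 63 and 48 in the others. The longest were 22694 bp (23288675 to 23311368), 11974 bp (23695809 to 23707782), 11778 bp (24305874 to 24317651), 11258 bp (24112619 to 24123876) and 11225 bp (23464621 to 23475845). The longest far exceeded the others and had scores of 1.64 and 1.35 in replicates 1 and 2. For the stretch of 11778 bp the scores were 1.68 and 1.30. Replicate 1 gave the higher score in all 161 stretches of the inner 1.5 Mb and in 10 of the 16 in the outermost 500 kb, with a median ratio of 1.02 in that outermost stretch and of 1.47, 1.55 and 1.45 in the 3 inner ones.

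The 5 highest-scoring and the 5 longest members of the combined list had 1 member in common. The top score of the combined list, 1.82, fell on a member of 4756 bp (24371208 to 24375963) that both replicates held, with scores of 2.27 in replicate 1 and 1.70 in replicate 2. The second, 1.80, fell on a member of 1025 bp (23508392 to 23509416) that touched no region of either replicate list. Next came 1.54 on a member of 1975 bp (24092789 to 24094763), which touched the top-scoring region of replicate 1 (2.87) and none of replicate 2. The remaining pair of the top 5, 1.49 on 9193 bp (24455362 to 24464554) and 1.45 on the member of 15114 bp named above, were held by both. Replicate 2 gave its own top score, 1.91, to a region of 1436 bp (23972896 to 23974331).

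Across members, longer regions tended to score higher. Spearman's rho between length and score was 0.56 over the 202 members of replicate 1, 0.65 over the 215 of replicate 2 and 0.54 over the 307 of the combined list. Over the rest of 3L it was 0.41, 0.53 and 0.11. Members of 1 list share a library, so these are descriptions. Scores of the inner 1.5 Mb were also higher within the classes of length below 5000 bp: regions of 2000 bp to under 5000 bp had a median of 1.10 in replicate 1 and 0.774 in replicate 2 there, against 0.727 and 0.585 over the rest of 3L. For regions under 2000 bp the medians were 0.805 and 0.537 in the inner 1.5 Mb, against 0.560 and 0.483. In the outermost 500 kb those short regions had medians of 0.609 and 0.504. Of regions of at least 5000 bp the rest of 3L held few, and the replicates differed in direction. In replicate 1 the median score was 1.31 over 48 inner regions, against 1.40 over 3 of the rest. In replicate 2 it was 1.05 over 35 inner regions, against 0.666 over 13 of the rest.

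**Figure D4:**
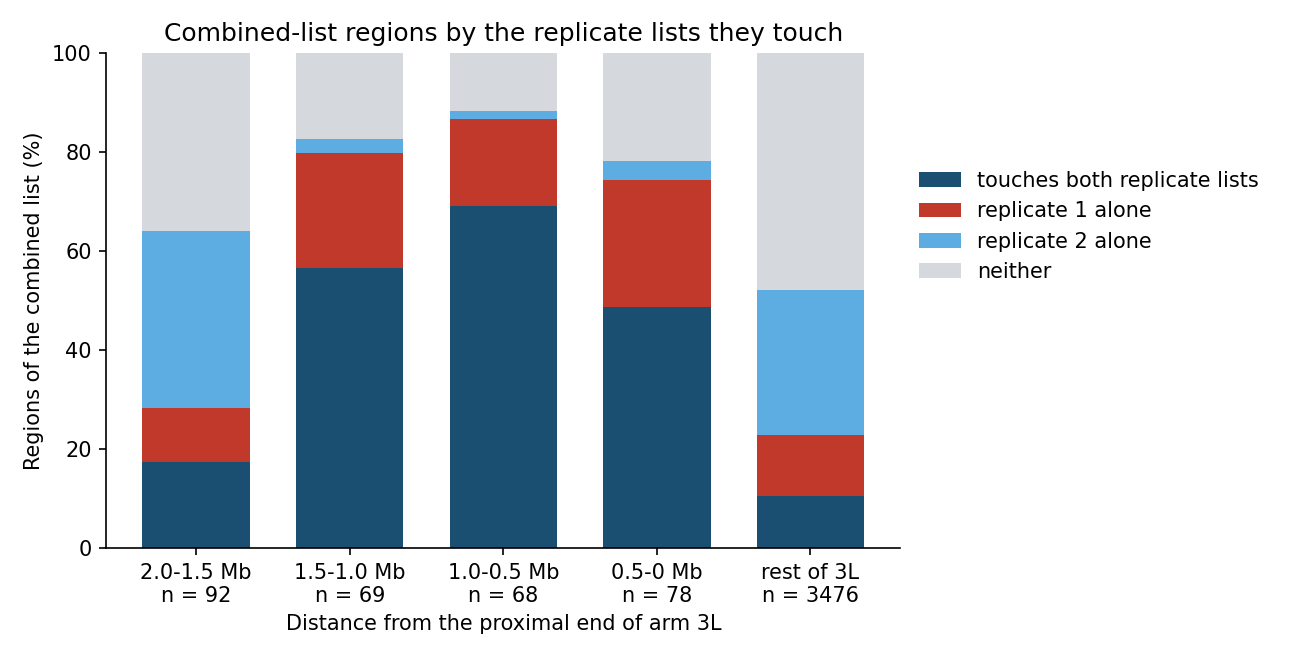
Regions of the combined list in the 4 stretches of the base, and in the rest of 3L, by whether they touch regions of both replicate lists, of 1 or of neither, in percent of the n regions under each bar. The share touching both was 17.4% in the outermost stretch and 56.5%, 69.1% and 48.7% in the inner ones, against 10.5% over the rest of 3L.

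Agreement between the libraries was higher in the inner 1.5 Mb than in the outermost stretch. No step was fitted to agreement, so its position within the base was not located. Of the 307 members of the combined list 140 (45.6%, 95% Wilson interval 40.1 to 51.2) touched a region of both replicate lists, where 15.6% of all regions of that list did. Another 70 (22.8%, 18.5 to 27.8) touched neither, against 44.4% of all regions. These intervals reflect counting error alone, since regions next to each other are not independent and the combined list was made from the same libraries. The share touching both was 57.7% (51.0 to 64.1) in the inner 1.5 Mb and 17.4% (11.0 to 26.4) in the outermost stretch. All 61 members of at least 5000 bp touched both lists. The share among all regions of that length was not computed, so whether this is particular to the base was not tested.

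The 2 libraries differed in which regions they held alone. In the inner 1.5 Mb 48 members of the combined list touched replicate 1 alone and 6 touched replicate 2 alone. In the outermost stretch the order was the opposite, with 10 touching replicate 1 alone and 33 touching replicate 2 alone. Over the rest of 3L 431 touched replicate 1 alone and 1015 replicate 2 alone, the order of the outermost stretch. Counted from the replicate lists, 155 of the 164 inner regions of replicate 2 (94.5%, 95% Wilson interval 89.9 to 97.1) had a partner in replicate 1, against 16 of 51 (31.4%, 20.3 to 45.0) in the outermost stretch and 25.8% over the rest of 3L. The contrast was weaker from the side of replicate 1, where 129 of 175 inner regions (73.7%, 66.7 to 79.7) had a partner in replicate 2, against 15 of 27 (55.6%, 37.3 to 72.4) in the outermost stretch and 43.4% over the rest, and the first 2 intervals overlapped. Greater coverage and length raise overlap by themselves, and their part in this was not tested. Per base, the Jaccard index is the bases in both lists over the bases in at least 1 of them. It was 0.627 for the base, 0.699 in the inner 1.5 Mb and 0.170 in the outermost stretch, against 0.140 over the rest of 3L. On 3LHet, the separately assembled heterochromatin of the arm, the index was 0.649. It was 0.593 at the base of 2L, and 0.195 and 0.307 at those of 3R and X. Such agreement was thus not particular to the base of 3L. Of combined-list regions, 55.3% on 3LHet and 38.4% at the base of 2L touched both lists. At the bases of 3R and X 15.4% and 14.7% did. On 3LHet 74 touched replicate 1 alone and 15 replicate 2 alone.

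Members that neither replicate list held were mostly short, and the lists differ in the shortest region they can contain. The shortest region of either replicate list is 1301 bp, and 43 of the 70 such members were shorter than that, as were 1021 of 1665 over the rest of 3L, a like share. Among the 249 members of at least 1301 bp, 27 (10.8%, 95% Wilson interval 7.56 to 15.3) touched neither list, against 28.6% (26.8 to 30.6) of those over the rest. Of the 48 members with a score of at least 1, 29 touched both lists and 7 touched neither, 6 of them shorter than 1301 bp. The exception measured 4240 bp (24467177 to 24471416, score 1.01) and was named after its value was seen. Shares among all regions with such scores were not computed.

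Among the pericentric parts compared, the base of 3L stood nearest in coverage to 3LHet, the separately assembled heterochromatin of the same arm. It stood above the bases of the other arms compared. No such separate sequence of another arm was compared. A likeness to 3LHet in particular therefore cannot be told apart from a likeness to such sequences in general. Coverage of the base minus that of 3LHet was −5.32 percentage points ± 2.98 (SD, n = 2), with 40.7% and 34.2% at the base in replicates 1 and 2 and 48.2% and 37.4% on 3LHet. For the inner 1.5 Mb, at 50.8% and 39.4%, the values lay slightly above those of 3LHet in both lists, by less than the distance between the lists. Median length in the inner 1.5 Mb was 3028 and 2663 bp, against 2716 and 2515.5 bp on 3LHet, and the median score was 1.11 and 0.769, against 1.14 and 0.820.

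**Figure D5:**
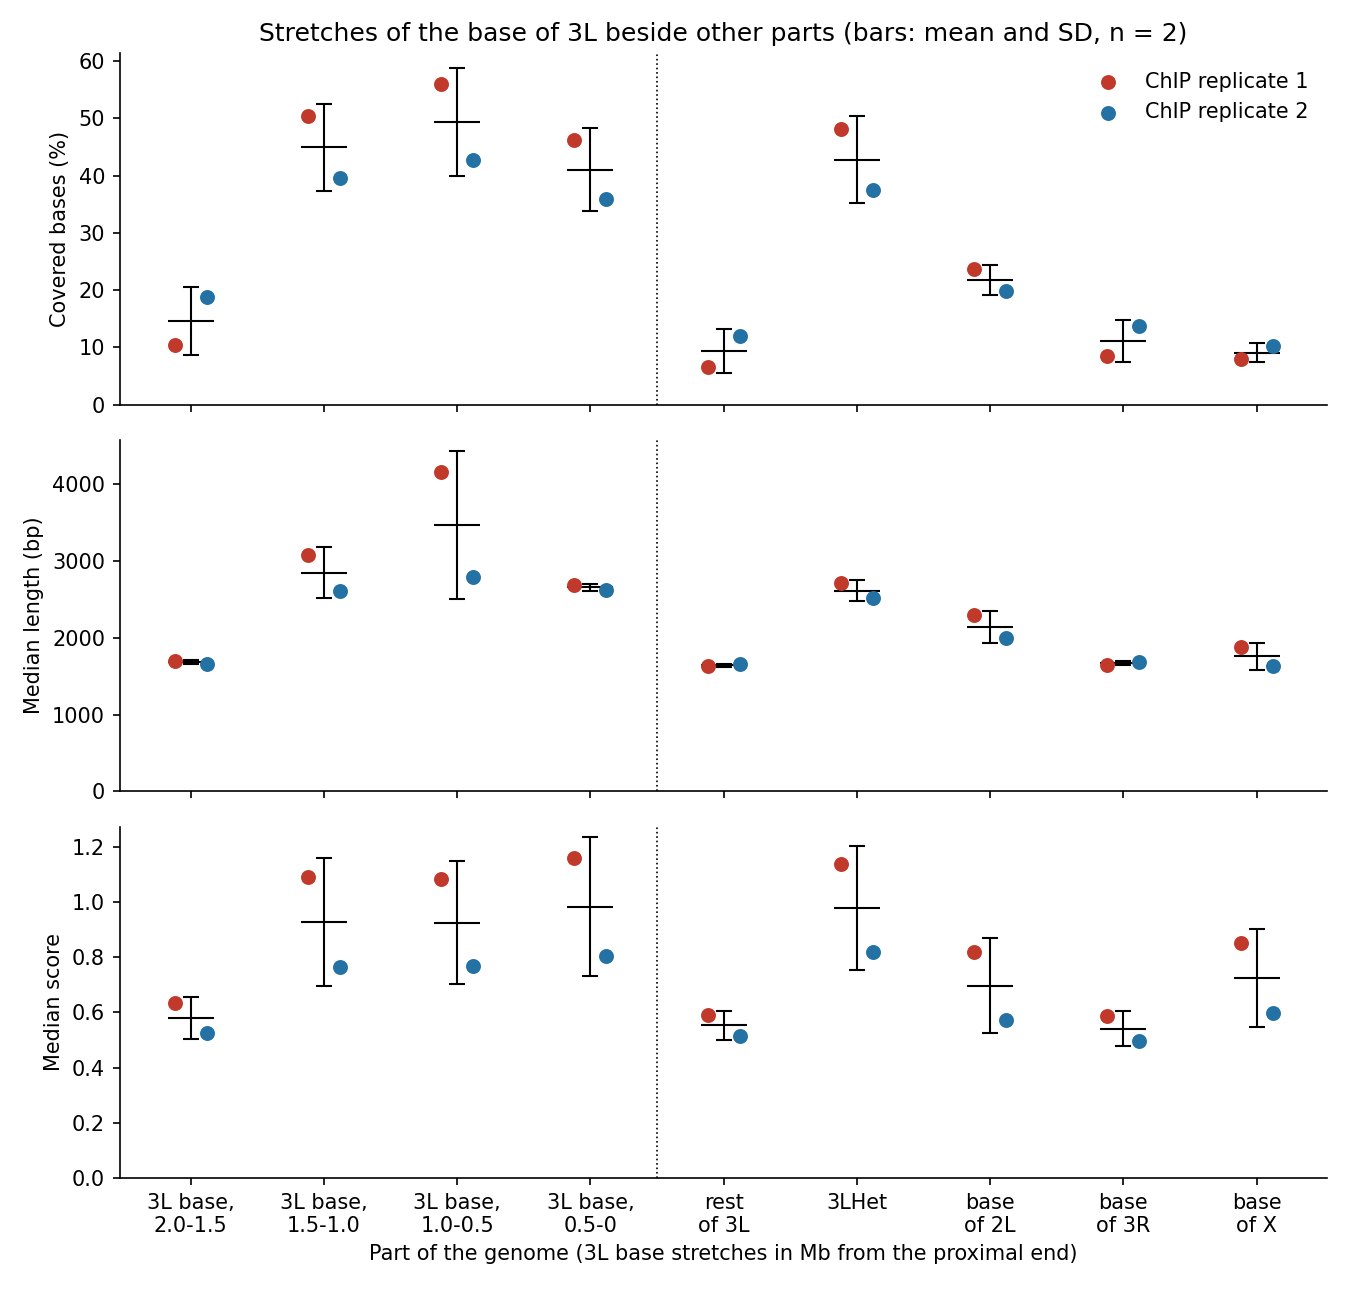
Covered bases in percent (top), median region length in bp (middle) and median score (bottom) for the 4 stretches of the base of 3L, left of the dotted line, and for other parts, right of it. Points are the 2 replicate lists, and bars give their mean and SD (n = 2). The outermost stretch lies near the rest of 3L, and the 3 inner ones near 3LHet.

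The proximal 2 Mb of 2L was the nearest of the other arm bases. The base of 3L was 15.7 percentage points ± 1.93 (SD, n = 2) above its 23.7% and 19.9% in replicates 1 and 2, and the ratio was 1.72 in each list. Against the base of 3R the difference was 26.4 points ± 8.32, and against the base of X it was 28.4 points ± 6.24 (SD, n = 2 for each). Both of those arms' bases lay close to the rest of 3L in coverage, at 8.44% and 13.7% for 3R and 7.93% and 10.2% for X. In score the base of X lay higher than the rest of 3L. There 40% and 11.7% of regions scored at least 1 in replicates 1 and 2, against 2.72% and 0.208% over the rest of 3L. The shares were 55.9% and 19.1% at the base of 3L and 34.1% and 17% at that of 2L. At that of 3R they were 1.04% and 0%. The highest scores at the base of X, 3.17 and 3.13, lay above the 2.87 and 1.91 of the base of 3L. High scores were thus not particular to the base of 3L. Regions of at least 5000 bp numbered 48 and 35 at the base of 3L, 23 and 21 at that of 2L, 0 and 1 at that of 3R and 3 and 4 at that of X. The longer sequence 3LHet, of 2555 kb, held 65 and 54 of them. Of at least 10000 bp it held 22 and 10, against 13 and 6 at the base of 3L. The assembled arms reach unequally far towards their centromeres, so bases of equal length need not hold equal amounts of heterochromatin, and this cannot be told apart from a difference between the arms.

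Position alone chose the members, and the outer bound fell among short, low-scoring regions. In the combined list the first region inside it (22543202 to 22545257, 2056 bp) scored 0.509 and the last outside it (22539467 to 22540963, 1497 bp) scored 0.274. In replicate 1 the first region inside measured 1496 bp with a score of 0.675 and the last outside 1920 bp with a score of 0.598. In replicate 2 the first inside measured 2017 bp with a score of 0.643 and the last outside 1772 bp with a score of 0.534. At the other end enrichment ran to the last bases of the assembled arm: the final member ended 74 bp before the end in the combined list, 218 bp in replicate 1 and 361 bp in replicate 2, with scores of 0.855, 1.16 and 0.911.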

How the data were processed

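Per the file headers, coordinates are FlyBase release 5, and the deposited files list significantly enriched regions, 1 list per ChIP library and 1 for the replicate set. The score of each region was assigned by the authors as deposited, on a scale not stated; the first and last base were used as given. The submitters' processing notes name the read aligner Bowtie 0.12.7. Not given in the sources used here are the region caller, its threshold, the treatment of multiply mapping reads and the use of input. Region depth is unknown, as the lists carry no counts.

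Covered shares count bases of regions clipped to each part. Members belong to a part by midpoint. Steps were fitted by least squares on windows of 100 kb, or on members in map order with at least 10 on each side, and the code was checked on simulated lists. Overlap means at least 1 bp. The 5 depleted regions of the combined list, none at the base, were left out. Nothing states that the ChIP libraries came from separate collections, so their SD may be technical. Regions named are the 5 longest and 5 highest-scoring members and the longest stretches in both lists. Also named are the 3 longest uncovered stretches, extreme windows and edge members. The outermost strong members and the next longest uncovered stretches were added after values were seen. The members, stretches and lists were chosen with earlier results of these data known. The gene table given is from release 6 and no release 5 genome was used, so no gene was assigned and no sequence is shown. Values were computed in Python 3.11.15 with pandas 2.3.3, NumPy 2.4.6 and SciPy 1.17.1 and drawn with matplotlib 3.10.9.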

Additional observations from a re-analysis of the deposited data

How the results depend on the processing

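There were 55 alternatives over 10 results, 2 of them added after seeing the data. Of the 55, 45 moved the value by less than the spread between replicates or its interval. Leaving out 1 of 2 replicates always moves their mean by less than their SD. Those settings therefore count among the 45 by construction. The log2 ratio of regions per Mb, base over rest of 3L, was 1.09 as reported. It changed sign in the combined list, at −0.0065, which is nearly no difference. In the top 50% by score it kept its sign and was 2.46. The log2 ratio of median length was 0.88 with regions less than 1 kb apart merged and 0.36 for the proximal 3 Mb, against 0.61. The log2 ratio of coverage over the mean of the bases of 2L, 3R and X was 0.92 in the combined list and 1.84 in the top 50% by score, against 1.42. The length step lay at 1400 kb from the end in the combined list, against 1503 kb. The Jaccard index was 0.613 in the top 50% by score and 0.630 after merging, against 0.627. Members touching both lists made up 56.2% of those of at least 1301 bp, against 45.6% of all. The causes were not tested. Leaving out a replicate gave 22.1 to 34.1 percentage points for coverage over the rest of 3L, log2 ratios of 0.47 to 0.74 for length and 0.75 to 1.43 for regions per Mb, and 0.154 to 0.481 for the score difference. It gave log2 ratios of 1.23 to 1.61 to the other bases. The lower value of each of these 5 ranges is that without replicate 1. Steps lay from 1400 to 1500 kb for coverage, 1497 to 1509 kb for length and 1441 to 1508 kb for score. No paired analysis was possible because no list of an input library was analysed here. Unknown depth limits what an absent region shows.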
